A study of Mus musculus with 24 samples.

Results

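The regulatory T cell program was followed through 9 genes, *Foxp3*, *Ikzf2*, *Il2ra*, *Ccr8*, *Izumo1r*, *Penk*, *Il10*, *Areg*, and *Itgb8*, which were taken by symbol from the 32285 genes of the count matrix. All 9 were detected, with between 531 (*Itgb8*) and 19108 (*Areg*) unique molecular identifiers (UMIs, each standing for 1 captured RNA molecule) in the cells kept. The cells came from Panc02 tumors, a murine pancreatic cancer line grown under the skin of male wild-type C57BL/6 mice that were 6–7 weeks old. Every combination of 3 agents was given, which makes 8 treatments, and the mice of Isotype Control had isotype antibodies and no vaccine. PancVAX is a vaccine of peptides with neoantigens of Panc02, given at 50 µg per peptide on days 12 and 19 together with AddaVax and the STING agonist ADU V16. PBS replaced it in the other mice, so that peptides and adjuvants cannot be told apart in an effect of PancVAX. Anti–PD-1 (100 µg from day 12) and anti–CTLA-4 (100 µg on days 15 and 22) bind inhibitory receptors of T cells, and the labels place the tumor harvest on day 38. A figure legend of the study names an earlier day for these T cells. CTLA-4 is itself abundant on regulatory T cells.

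Cells of several mice with the same treatment were mixed before capture. Each treatment gave 1 whole-tumor library, of dissociated tumor as it was, and 1 Percoll library, of cells taken from a density gradient to favor leukocytes. That made 16 libraries, and preparations are also the sequencing batches. The sources do not say whether both libraries of a treatment hold the same mice, and both together are called its pool. All *P* values therefore measure the spread between these libraries or pools, not between mice. Libraries held 77132398–176233225 UMIs, and 57357 of 144994 barcodes (39.6%) passed the limits on cells, of which 120419 would have passed without the upper limits. Of 55243 barcode sequences among the cells, 2057 occurred in more than 1 library.

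Regulatory T cells are CD4+ T cells that restrain other lymphocytes, and the transcription factor FOXP3 fixes their identity. Many also hold Helios, a zinc finger factor of the Ikaros family encoded by *Ikzf2*. They take up IL-2 through CD25, the receptor chain encoded by *Il2ra*, and in tumors many carry the chemokine receptor CCR8 and the folate receptor family protein FR4, encoded by *Izumo1r*. Their secreted products include IL-10, which dampens inflammation, the growth factor amphiregulin (*Areg*), and the enkephalin precursor (*Penk*), and the integrin chain encoded by *Itgb8* pairs with that of *Itgav* to release active TGF-β.

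RefSeq start-site windows were found for 6 of the 9 genes. They ran from 250 bases before to 30 bases after the start in GRCm38.p6, the same assembly as the mm10 build named in the submitters' processing notes. The windows of *Foxp3*, *Il2ra*, *Izumo1r*, and *Areg* are shown because *Foxp3* defines the gate used below, the other 3 were higher in that gate in nearly every library, and all hold a match to a motif of T cell factors. Letters in capitals mark matches on either strand. The core bound by NFAT was searched as GGAAA. The motif of RUNX factors was searched as TGTGGT. The TATA box was searched as TATAAA.
Foxp3 (chrX:7579426-7579705, plus strand): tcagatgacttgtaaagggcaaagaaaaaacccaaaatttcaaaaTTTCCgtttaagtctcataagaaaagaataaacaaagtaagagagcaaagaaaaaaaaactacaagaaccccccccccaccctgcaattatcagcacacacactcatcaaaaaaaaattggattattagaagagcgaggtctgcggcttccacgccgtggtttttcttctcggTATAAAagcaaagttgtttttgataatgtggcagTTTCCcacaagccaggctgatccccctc
Il2ra (chr2:11642542-11642821, plus strand): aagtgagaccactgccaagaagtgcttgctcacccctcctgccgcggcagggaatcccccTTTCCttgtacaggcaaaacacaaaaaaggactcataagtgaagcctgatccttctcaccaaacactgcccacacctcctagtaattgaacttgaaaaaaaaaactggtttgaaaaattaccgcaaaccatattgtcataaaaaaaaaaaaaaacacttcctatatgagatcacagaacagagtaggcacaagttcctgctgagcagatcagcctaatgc
Izumo1r (chr9:14903738-14904017, minus strand): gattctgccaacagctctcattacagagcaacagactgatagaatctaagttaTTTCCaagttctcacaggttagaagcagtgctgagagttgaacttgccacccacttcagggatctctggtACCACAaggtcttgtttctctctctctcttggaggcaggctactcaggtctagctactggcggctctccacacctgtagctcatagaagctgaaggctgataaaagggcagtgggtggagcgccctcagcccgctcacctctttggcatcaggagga
Areg (chr5:91139349-91139628, plus strand): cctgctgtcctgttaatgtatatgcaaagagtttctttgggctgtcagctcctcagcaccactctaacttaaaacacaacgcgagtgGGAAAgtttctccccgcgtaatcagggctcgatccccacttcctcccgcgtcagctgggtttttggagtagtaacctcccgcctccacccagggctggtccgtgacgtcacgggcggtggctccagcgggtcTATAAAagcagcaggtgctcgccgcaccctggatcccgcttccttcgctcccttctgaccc

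*Foxp3* and *Areg* each held a TATA box, 32 and 31 bases before the start. *Izumo1r* held a RUNX match 127 bases before it. All 4 windows held the NFAT core, as did 59.2% of 32851 windows of this length, so that this short match does not set them apart. RUNX letters were found in 15.6% and a TATA box in 13.1% of all windows. A further window, at a later start of *Foxp3*, held a match to TTCNNNGAA (STAT, 7.83% of windows) that overlapped an NFAT core, and the windows of *Ccr8* and *Itgb8* held none of these letters. No match to TGANTCA (AP-1, 7.46%) or TGTTTAC (forkhead, 3.49%) was found in any of the 6 genes.

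T cells were cells with at least 2 UMIs over *Cd3d*, *Cd3e*, and *Cd3g*, and were divided by UMIs into gates. Foxp3-positive cells had a *Foxp3* UMI and none of *Cd8a* or *Cd8b1* (486 cells, 11–47 per library). Foxp3-negative CD4 T cells had a *Cd4* UMI and none of *Foxp3* or *Cd8* (1127 cells, 21–139 per library), and CD8 T cells had a *Cd8* UMI and none of *Cd4* (10689 cells, 262–1309 per library). Median depths per cell were close in both CD4 gates, at 3081.5 and 3385 UMIs, and higher in CD8 T cells, at 3949 UMIs. *Foxp3* and the genes of the other gate markers chose these cells, so their levels are a description with no test, except that the rule for CD8 T cells did not use *Foxp3*.

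The *Foxp3* UMI was a narrow marker in this tumor. It was found in 647 of 57357 cells (1.13%), of which 581 (89.8%) were T cells, against 50 of 40332 cells (0.124%) without any *Cd3* UMI and 62 of 10689 CD8 T cells (0.580%). Of the 581 T cells, 95 (16.4%) also had a *Cd8a* or *Cd8b1* UMI and were left out of the Foxp3-positive gate. Those with a *Cd4* UMI besides were in none of the gates. Among Foxp3-positive cells 226 of 486 (46.5%) rested on 1 *Foxp3* UMI and 245 (50.4%) also had a *Cd4* UMI. When every cell was thinned to 1500 UMIs, 309 of 457 (67.6%, exact 95% binomial interval 63.1%–71.9%) kept a *Foxp3* UMI, so that some Foxp3-negative CD4 T cells may hold *Foxp3* RNA that was not sampled. Intervals cover counting error only. T cell receptor β contigs, sequenced in the Percoll libraries alone, were found in 207 of 263 Foxp3-positive cells (78.7%), 495 of 569 Foxp3-negative CD4 T cells (87.0%), and 6 of 6833 macrophages or monocytes (0.0878%).

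Markers of other cells were also present in the gates. At least 2 UMIs of genes of other lineages (*Cd79a*, *Ms4a1*, *C1qa*, *Csf1r*, *Csf3r*, *Krt8*, *Krt18*, *Col1a1*, *Col3a1*) were found in 7.41%, 8.25%, and 10.6% of the cells of the 3 gates, and no doublet caller was run. In Foxp3-positive cells all 8 macrophage markers were detected, with a summed level of 179–2794 CPM (UMIs of a gene scaled to a gate total of 1000000) and a median of 393 CPM. The neutrophil list ranged from 0 to 3650 CPM with a median of 8.34 CPM and *Retnlg* at 0, and the NK list from 0 to 76.6 CPM with *Ncr1*, *Klrb1c*, and *Klra8* at 0. Single cells made the peaks, since 1 cell held 572 neutrophil-marker UMIs in the Percoll library of PancVAX + Anti-PD-1. In Foxp3-negative CD4 T cells the sums were 338–1945 CPM for macrophage, 0–1458 CPM for neutrophil, and 0–3112 CPM for NK markers. Their medians were 665, 43.9, and 37.0 CPM. In some comparisons values are also given with cells holding UMIs of other lineages left out.

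**Figure D1:**
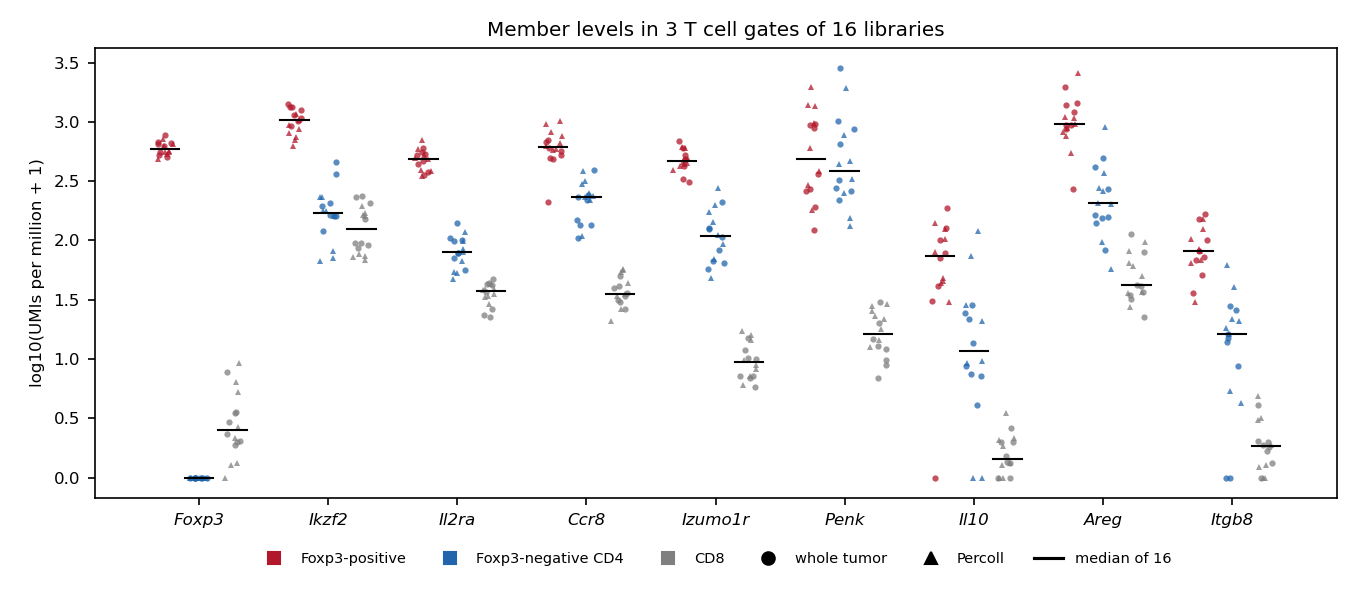
Level of each of the 9 genes in the 3 T cell gates, as log10 of CPM + 1 on the vertical axis, for every library (circles, whole tumor; triangles, Percoll; black line, median of 16 libraries). *Ikzf2*, *Il2ra*, and *Izumo1r* separate Foxp3-positive from Foxp3-negative CD4 T cells in all libraries, and *Penk* overlaps between the CD4 gates.

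The first comparison asked which genes of the program mark Foxp3-positive cells within the same tumor, against Foxp3-negative CD4 T cells and against CD8 T cells. All 8 genes other than *Foxp3* passed the filter on low counts. Of these, 7 were called higher in Foxp3-positive than in Foxp3-negative CD4 T cells and 8 were called higher than in CD8 T cells. *Il10* and *Itgb8* passed that filter through the Foxp3-positive gate alone, so that their calls support nothing and they are described by their levels. *Penk* alone was not called between the CD4 gates. Among 4789 genes tested 9.84% were called higher and 8.81% lower against Foxp3-negative CD4 T cells (18.6% in all). Against CD8 T cells 17% were called higher and 14.7% lower (31.7% in all), where a call needed an adjusted *P* value under 0.05 in edgeR and a change over 0.5 on the log2 scale. In sums of this kind fewer cells of a type and less RNA per cell cannot be told apart. *Foxp3* itself lay at 484–776 CPM (median 593) in its own gate and at 0–8.25 CPM in CD8 T cells.

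*Ikzf2* had 622, 1027, and 1405 CPM (lowest, median, and highest of 16 libraries) in Foxp3-positive cells. It had 65.7, 170, and 457 CPM in Foxp3-negative CD4 T cells and 67.1, 123, and 236 CPM in CD8 T cells. Every Foxp3-positive library lay above every library of the other gates. The difference was 2.45 ± 0.15 (log2, SE; 5.47-fold; edgeR, adjusted *P* = 1.1e-16) against Foxp3-negative CD4 T cells and 2.83 ± 0.14 (adjusted *P* = 1.5e-21) against CD8 T cells. A UMI of it was found in 88.5% of Foxp3-positive cells, more than of any of the other 7 genes, in 21.3% of Foxp3-negative CD4 T cells, and in 25.5% of CD8 T cells.

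The receptors followed the same order. *Il2ra* had 349, 490, and 704 CPM in Foxp3-positive cells, 46.2, 78.6, and 139 CPM in Foxp3-negative CD4 T cells, and 21.8, 36.6, and 46.2 CPM in CD8 T cells. Every Foxp3-positive library again lay above every library of the other gates. Its difference between the CD4 gates, 2.39 ± 0.10 (5.23-fold; adjusted *P* = 2.7e-23), had the smallest error of the 8 genes. *Izumo1r* had 308, 469, and 687 CPM against 47.7, 109, and 278 CPM in Foxp3-negative CD4 T cells, which did not overlap, and 4.84, 8.36, and 16.1 CPM in CD8 T cells. Its differences were 2.01 ± 0.13 (4.02-fold; adjusted *P* = 1.6e-16) and 5.56 ± 0.13 (adjusted *P* = 3.5e-33). For *Ccr8* the values were 209, 615, and 1012 CPM, 103, 231, and 393 CPM, with a median of 34.4 CPM and at most 56.5 CPM in CD8 T cells. These ranges overlapped between the CD4 gates, although *Ccr8* was higher in Foxp3-positive cells in 15 of 16 libraries and by 1.48 ± 0.13 (2.78-fold; adjusted *P* = 3e-12), the smallest called difference. *Ccr8* was the receptor shared most widely with Foxp3-negative CD4 T cells, 27.4% of which had a UMI.

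Among the secreted products, *Areg* had 269, 950, and 2581 CPM in Foxp3-positive cells, 56.7, 205, and 900 CPM in Foxp3-negative CD4 T cells, and 21.7, 40.8, and 113 CPM in CD8 T cells. Its difference between CD4 gates was 1.99 ± 0.24 (3.97-fold; adjusted *P* = 6.2e-09), and libraries of the gates overlapped. *Il10* was sparse, with 0, 73.6, and 187 CPM against 0, 10.6, and 119 CPM, from 143 and 68 UMIs in all. It was higher in Foxp3-positive cells in 14 of 16 libraries. *Itgb8* had 29.3, 80.3, and 167 CPM against 0, 15.2, and 60.8 CPM, from 157 and 68 UMIs, and was higher in 15 of 16 libraries. In CD8 T cells the medians were 0.430 CPM for *Il10* and 0.847 CPM for *Itgb8*, from 39 and 45 UMIs over 10689 cells.

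*Penk* differed from the other genes. Its levels were 120, 489, and 1982 CPM in Foxp3-positive and 132, 384, and 2823 CPM in Foxp3-negative CD4 T cells, and the former was higher in 9 of 16 libraries. The difference of 0.11 ± 0.33 (95% interval −0.55 to 0.76; adjusted *P* = 0.87) was not called. Both CD4 gates lay above CD8 T cells (5.88, 15.4, and 29.0 CPM) in all 16 libraries, and the difference between Foxp3-positive and CD8 T cells was 5.05 ± 0.36 (adjusted *P* = 6.2e-16). The calls of the 6 genes other than *Il10* and *Itgb8* were the same in both comparisons under 11 alternatives each. The library with the fewest Foxp3-positive cells, Anti-CTLA-4 whole tumor with 11, was the lowest for *Ccr8* (209 CPM, 7 UMIs), *Areg* (269 CPM), and *Il10* (0, where a count of 0 allows up to 89.7 CPM), and the calls of these 6 genes were also the same without it.

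**Figure D2:**
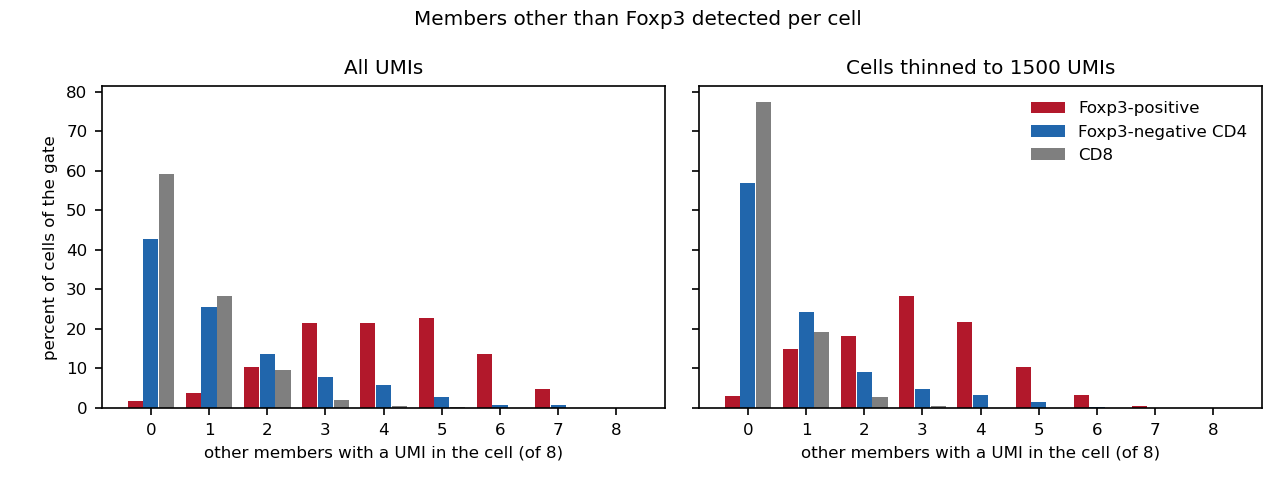
Percent of cells of each gate (vertical axis) that held 0 to 8 of the genes other than *Foxp3* (horizontal axis), as deposited and with every cell thinned to 1500 UMIs. Most Foxp3-positive cells held 3 to 5 of them and most CD8 T cells held none, at either depth.

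The genes were also counted per cell, as a description that does not test whether they occur together. Foxp3-positive cells held a mean of 4.03 of the other 8 genes, against 1.23 in Foxp3-negative CD4 T cells and 0.567 in CD8 T cells. At least 4 were found in 62.3%, 10.0%, and 0.646% of cells of these gates, and no cell of any gate held all 8. With every cell thinned to 1500 UMIs, which left out 29, 49, and 488 shallower cells, the means were 2.97, 0.785, and 0.264 and the shares with at least 4 were 35.7%, 4.92%, and 0.127%. Means per library were 3.27–4.36 in Foxp3-positive and 0.813–2.10 in Foxp3-negative CD4 T cells as deposited, so that the gates did not overlap. In the other direction, 30 Foxp3-negative CD4 T cells held 5 of the genes, 9 held 6, and 9 held 7.

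Genes differed in how their RNA was spread over cells. *Ikzf2* was found in 430 of 486 Foxp3-positive cells, with a median of 3 UMIs in those cells, and *Itgb8* in 108, with a median of 1 UMI. *Penk* was found in 119 Foxp3-positive cells, but 42 cells with at least 10 UMIs held 81.1% of its 1368 UMIs, and in Foxp3-negative CD4 T cells 57 such cells held 88.8% of 2409 UMIs. Most *Penk* RNA thus came from few cells in either gate. A single cell with 258 UMIs gave 83.5% of the *Penk* UMIs of Foxp3-negative CD4 T cells in the Anti-CTLA-4 whole-tumor library, the one with the highest level. *Areg* was intermediate, with 64 of 284 positive cells holding 65.0% of its UMIs.

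The other genes were compared between cells with and without *Penk*. Among Foxp3-negative CD4 T cells, *Ccr8* was found in 78.9% of the 57 cells with at least 10 *Penk* UMIs and in 22.5% of the 988 cells without *Penk*, and *Ikzf2* in 43.9% and 17.7%. Median depths were 4780 and 3354.5 UMIs. The 82 cells with 1 to 9 *Penk* UMIs had a median depth of 3329.5 UMIs, and *Ccr8* was found in 51.2% of them and *Ikzf2* in 48.8%, so that the share with *Ikzf2* was not particular to *Penk*-rich cells and both shares lay above those of cells without *Penk* at a like depth. In Foxp3-positive cells *Ccr8* was found in 88.1% of the 42 *Penk*-rich cells and 62.7% of the 367 cells without *Penk*, and *Itgb8* in 45.2% and 20.2%, at median depths of 3835.5 and 3078 UMIs. In the 77 cells between them (2864 UMIs) the shares were 72.7% and 19.5%. *Il10* had the other order in that gate, in 11.9% of *Penk*-rich cells and 15.5% of cells without *Penk*. *Il10* was found more often in cells with an *Izumo1r* UMI (19.3%) than without (6.10%), and *Ccr8* more often in cells with *Ikzf2* (70.9%) than without (32.1%). These pairs share their cells' depth and are given as a description.

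T cell clones, defined by the β chain in a Percoll library, rarely joined the gates. The 207 Foxp3-positive cells with a contig gave 202 clones, and by these counts some cells were counted in more than 1 clone. Of the clones 9 held at least 2 such cells, 5 also held a Foxp3-negative CD4 T cell, and 1 held a CD8 T cell. Program genes were counted in the 5 Foxp3-negative CD4 T cells of such clones. *Ikzf2*, *Ccr8*, and *Izumo1r* were each found in 4 of these 5 cells (80.0%, interval 28.4%–99.5%), against 18.2%, 30.6%, and 18.2% of the 490 other cells with a contig. *Itgb8* was found in 3 of 5 (60.0%, interval 14.7%–94.7%) against 4.08%, and *Areg* also in 3 of 5 against 15.9%. *Il2ra* was found in 2 of 5 against 17.6%, and *Penk* and *Il10* in 1 of 5 each against 12.4% and 3.88%. With 5 cells this has no test.

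**Figure D3:**
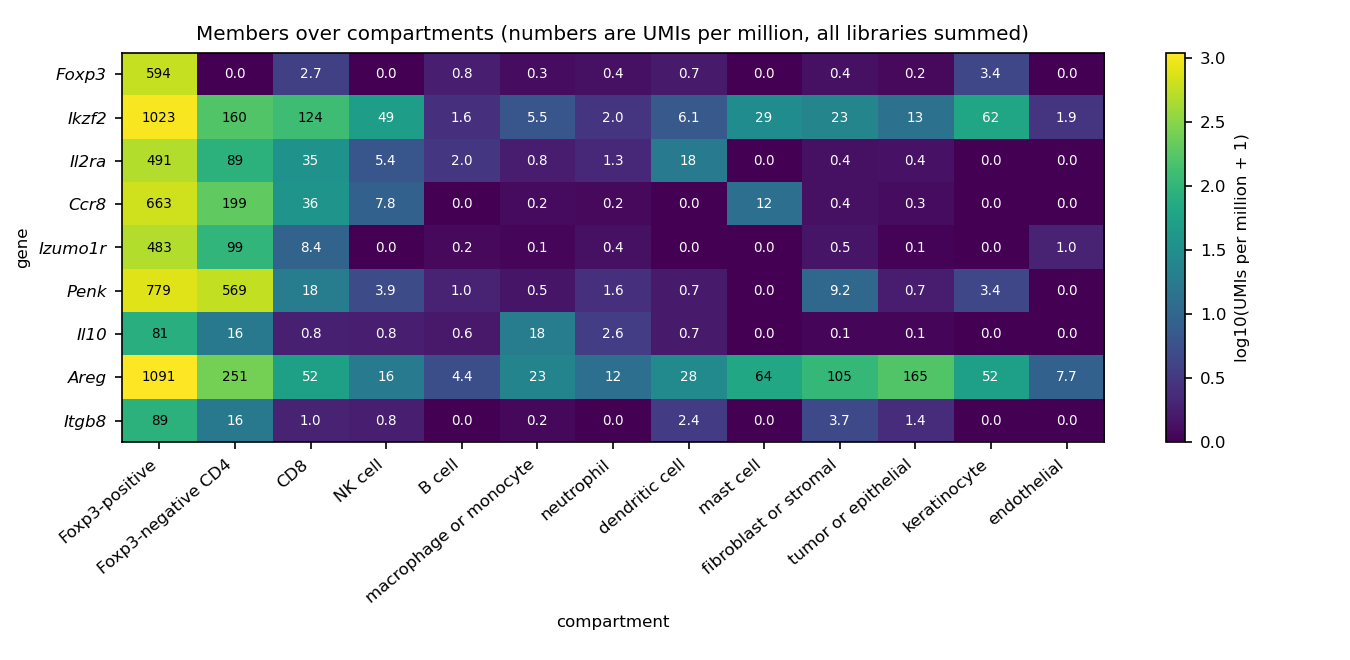
Level of the 9 genes (vertical axis) in 13 compartments of the tumor (horizontal axis) with all libraries summed, with CPM printed in each field and color for log10 of CPM + 1. In these sums each gene is highest in Foxp3-positive cells, with *Penk* close behind in Foxp3-negative CD4 T cells, while *Areg* is also found in tumor and stromal cells and *Il10* in macrophages.

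Outside T cells, compartments were named from fixed markers in cells without a *Cd3* UMI. With all libraries summed, each of the 8 genes other than *Foxp3* had its highest level in Foxp3-positive cells, but *Penk* lay close in Foxp3-negative CD4 T cells (779 and 569 CPM), where single libraries overlapped as described above. *Foxp3* chose its gate, and 79.1% of the *Foxp3* UMIs of the cells kept were there. *Areg* had 1091 CPM in Foxp3-positive cells, 165 CPM in tumor or epithelial cells, and 105 CPM in stromal cells. Because tumor cells were many, they held 28.9% of all *Areg* UMIs. *Il10* had 81.4 CPM in Foxp3-positive cells and 18.2 CPM in macrophages or monocytes, where 4.23% of cells had a UMI, and these cells held 75.7% of its UMIs. *Ikzf2* was found in keratinocytes at 61.8 CPM (58 cells, with at least 10 cells in 2 libraries only) and NK cells at 48.9 CPM, and *Il2ra* in dendritic cells at 17.6 CPM. *Izumo1r* stayed at or under 0.965 CPM in every compartment outside T cells.

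Over the 13 compartments, the genes whose level was most like that of *Foxp3* among 14070 genes were *Frmd5* (Pearson's r = 0.910), *Rgs9* (0.904), *Rln3* (0.899), *Acot11* (0.870), and *Atcay* (0.854), all with few UMIs (104–355). *Itgb8* ranked 9 (r = 0.805), *Izumo1r* 22, *Il2ra* 33, *Il10* 50, *Ikzf2* 57, *Ccr8* 62, *Penk* 83, and *Areg* 104. Compartments share libraries, and *Foxp3* chose one of them, so that this order is descriptive.

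Ligands, receptors, and partners of the 9 genes were spread over the tumor. *Ccl8*, a ligand of CCR8, had 930 CPM in macrophages, which held 92.5% of its UMIs. *Ccl1*, the other ligand, had 236 CPM in Foxp3-negative CD4 T cells and was lower in Foxp3-positive cells by a log2 difference of −3.98 ± 0.71 (adjusted *P* = 1.9e-05). *Il2*, the cytokine bound by CD25, had 62 UMIs in Foxp3-negative CD4 T cells, 9 in CD8 T cells, and 0 in Foxp3-positive cells. Over the 16 libraries of Foxp3-negative CD4 T cells it had a median of 4.50 CPM and was at 0 in 5, and the highest value, 260 CPM, came from a single library, Anti-CTLA-4 Percoll. *Egfr*, the receptor of amphiregulin, had 106 CPM in keratinocytes, 79.9 CPM in stromal cells, and 26.9 CPM in tumor cells. *Il10ra* was highest in neutrophils (194 CPM) and macrophages (137 CPM). Of 18 partners 14 were tested between the CD4 gates. Of these 4 were higher (9.84% of all genes), 1 lower (8.81% of all genes), and 9 not called. The median log2 difference of the 14 was 0.20 against −0.01 over all genes. The integrin chain *Itgav* rose by 1.72 ± 0.17 (adjusted *P* = 3.7e-11). Of the 4 higher partners *Lrrc32*, which tethers latent TGF-β to the cell surface, passed the filter through the Foxp3-positive gate alone and is described by its levels, with medians of 104 CPM in Foxp3-positive and 7.20 CPM in Foxp3-negative CD4 T cells. Against CD8 T cells 5 partners, *Lrrc32* again among them, were higher (17% of all genes) and 1 lower (14.7% of all genes).

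The gate was also described by 25 further genes of regulatory T cells. The list was chosen with earlier results of these data known, so it is no independent check of the label. Of the 25 genes, 16 were higher in Foxp3-positive than in Foxp3-negative CD4 T cells (9.84% of all genes). A single one was lower (8.81% of all genes), and 8 were not called. The median difference of the list was 0.92 against −0.01 over all genes tested. Of the 16, *Lrrc32*, *Il1rl1*, and *Prdm1* passed the filter through the Foxp3-positive gate alone, so that their calls support nothing, which leaves 13. Among all genes the same held for 186 of the 471 called higher. *Ctla4*, the target of one of the antibodies, had a difference of 1.83 ± 0.14 and the OX40 gene *Tnfrsf4* one of 1.26 ± 0.09. The Helios relative *Ikzf4* differed by 1.83 ± 0.19 and *Klrg1* by 3.04 ± 0.40. The single lower gene was *Nrp1*, at −0.58 ± 0.15 (adjusted *P* = 0.0022). Against CD8 T cells 20 were higher (17% of all genes), 5 of them through that gate alone. The gene *Lag3* (−0.63 ± 0.18) alone was lower (14.7% of all genes).

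Genes typical of other CD4 T cells were examined in the same way. Of 15 such genes 12 were tested, and 7 were called lower (8.81% of all genes), with a median difference of −1.03. Of the 12 genes 4 were not called. *Tcf7*, a factor of resting and memory T cells, differed by −3.73 ± 0.36 and *Ifng* by −4.71 ± 0.42. Both were higher in Foxp3-positive cells in 0 of 16 libraries. Other genes of the list did not follow them, since *Ccr7* and *Cxcr3* were each higher in Foxp3-positive cells in 10 of 16 libraries and *Il7r* in 8. The CD40 ligand gene *Cd40lg*, also among the 7, passed the filter through the Foxp3-negative CD4 gate alone, so that its call supports nothing, which leaves 6 of 12. Against CD8 T cells 5 were higher (17% of all genes) and 5 lower (14.7% of all genes). Among all genes, those with the largest rises in Foxp3-positive cells were *Klrg1*, *Laptm4b* (2.96 ± 0.41), *Itgae* (2.91 ± 0.20), *Frmd5* (2.89 ± 0.52), and *Rln3* (2.88 ± 0.45). All of these but *Klrg1* passed the filter through the Foxp3-positive gate alone, and *Csf2* did so through the Foxp3-negative CD4 gate alone, so that their place in this order is a description. *Csf2*, the gene of GM-CSF, had 785 UMIs in Foxp3-negative CD4 T cells and 0 in Foxp3-positive cells, at least 109-fold lower by the floor of 3 counts over the group. *Atp8b4* (103 UMIs against 0, at least 14.2-fold lower), *Gzmk* (−5.93 ± 0.92), *Slamf7* (−5.68 ± 0.58), and *Klrd1* (−5.35 ± 0.39) were the other large falls. Summed NK markers reached 3112 CPM in Foxp3-negative CD4 T cells and 76.6 CPM in Foxp3-positive cells. The part of NK cells in these falls was not tested.

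The second question was whether vaccine or antibodies changed the program. Each agent was tested over the 8 pools, 4 with and 4 without it, with the other agents as covariates. In Foxp3-positive cells none of the 8 genes was called for any agent. Among 3944 genes 0.0507% were called with PancVAX, 0% with anti–PD-1, and 0% with anti–CTLA-4 (303, 185, and 163 genes had an unadjusted *P* under 0.05, and DESeq2 called 0 for each). Differences of the 8 genes ran from −0.19 ± 0.25 (*Itgb8*) to 0.25 ± 0.28 (*Penk*) with PancVAX and from −0.17 ± 0.28 (*Penk*) to 0.34 ± 0.25 (*Itgb8*) with anti–PD-1. With anti–CTLA-4 they ran from −0.26 ± 0.34 (*Il10*) to 0.45 ± 0.28 (*Penk*). Errors of 0.14–0.16 for *Ikzf2*, *Il2ra*, *Ccr8*, and *Izumo1r* and of 0.22–0.35 for the other genes set what could be detected. *Foxp3* per UMI of its own gate was 576, 643, 564, and 632 CPM in the pools Isotype Control, Anti-PD-1, Anti-CTLA-4, and Anti-PD-1 + Anti-CTLA-4, and 602, 691, 530, and 515 CPM in the same pools with PancVAX added.

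**Figure D4:**
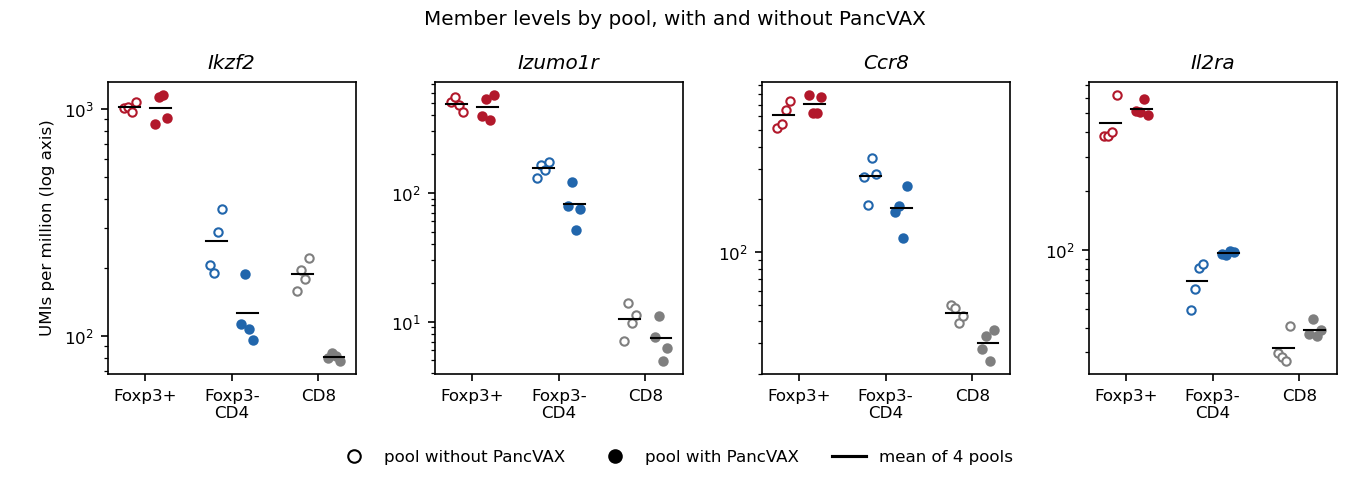
CPM of *Ikzf2*, *Izumo1r*, *Ccr8*, and *Il2ra* (vertical log axis) in the 3 gates, by pool (open, without PancVAX; filled, with PancVAX; line, mean of 4 pools). *Ikzf2* is lower with PancVAX in Foxp3-negative CD4 and CD8 T cells, while pools overlap in Foxp3-positive cells.

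Outside the Foxp3-positive cells, 2 program genes in each other gate were lower with PancVAX. *Ikzf2* in Foxp3-negative CD4 T cells had 361, 190, 205, and 287 CPM in the pools without the vaccine, in the order above, and 113, 107, 187, and 96.2 CPM with it. The groups did not overlap, though the lowest pool without (190 CPM) lay close to the highest with it (187 CPM). The difference was −1.07 ± 0.22 (edgeR, adjusted *P* = 0.035). *Izumo1r* had 174, 164, 131, and 151 CPM without and 79.1, 51.4, 122, and 74.7 CPM with PancVAX, also without overlap, and differed by −0.99 ± 0.22 (adjusted *P* = 0.046). These were 2 of 8 genes, and 0.235% of 5525 genes were called lower (0.959% in either direction). *Ccr8* (−0.63 ± 0.18, adjusted *P* = 0.15), *Areg* (−0.66 ± 0.27, 0.32), *Il10* (−1.40 ± 0.51, 0.26), and *Itgb8* (−0.91 ± 0.50, 0.48) were not called, nor was *Penk* (0.00 ± 0.45). Without the filter on low counts *Ccr8* (−0.57, adjusted *P* = 0.0459), *Areg* (−0.59, 0.0202), and *Il10* (−1.34, 0.038) were called, and *Areg* also in Percoll libraries alone (−1.42, 0.0229). *Il2ra* had the other sign, at 49.5–85.0 CPM without and 94.2–98.1 CPM with PancVAX, also without overlap, but its difference of 0.46 ± 0.19 was not called (edgeR, adjusted *P* = 0.31). How many of all genes had no overlap between pools was not counted in any gate.

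Both calls were close to the threshold, and each was lost in 9 of 20 alternatives. Leaving out any of 6 single pools, all but Anti-CTLA-4 and PancVAX + Anti-CTLA-4, moved the adjusted *P* of *Ikzf2* to 0.0638–0.178 and that of *Izumo1r* to 0.0915–0.188. Without the upper limits on cells they were 0.26 and 0.29. They were 0.0536 and 0.105 with 1 *Cd3* UMI required of a T cell, and 0.120 and 0.257 in whole-tumor libraries alone. Over the 9 alternatives without the call the differences were −1.13 to −0.76 for *Ikzf2* and −0.997 to −0.778 for *Izumo1r*. With all 16 libraries and preparation as a replicate block the adjusted *P* values were 0.0043 and 0.016, and 102 genes were called in place of 53. That fit counts both libraries of a treatment as separate samples, although they may hold the same mice. Summed macrophage markers in this gate were 338–1283 CPM in libraries without and 457–1945 CPM with PancVAX, and both calls were also made with cells holding UMIs of other lineages left out. That filter held no NK gene. Summed NK markers were 0–3112 CPM in libraries without and 13.9–897 CPM with PancVAX, highest in Anti-PD-1 + Anti-CTLA-4 Percoll and Anti-CTLA-4 whole tumor (2101 CPM). Summed neutrophil markers were 0–1458 CPM without and 6.62–289 CPM with it, highest in Isotype Control whole tumor. The part of NK cells and neutrophils in both calls was not tested. This gate held 64–93 cells per pool without PancVAX and 126–276 with it. Some of its cells may hold *Foxp3* RNA that was not sampled, and their part in both calls was not tested either.

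In CD8 T cells *Ikzf2* was also lower with PancVAX, and whether the fall differed from that in Foxp3-negative CD4 T cells was not tested. It had 220, 194, 157, and 178 CPM without and 79.9, 81.5, 83.8, and 77.4 CPM with PancVAX, a difference of −1.30 ± 0.09 (adjusted *P* = 4.3e-05) that was called in all 20 alternatives. *Ccr8* had 42.9, 47.7, 49.5, and 39.3 CPM without and 27.9, 23.7, 32.9, and 35.6 CPM with it, and differed by −0.68 ± 0.13 (adjusted *P* = 0.0071). Its groups did not overlap either, but the call was lost without the upper limits (−0.29, adjusted *P* = 0.22) and in Percoll libraries alone (−0.76, 0.0736). These were 2 of 8 genes tested. The background was higher in this gate, where 3.81% of 11257 genes were called lower, 6.28% higher, and 10.1% in either direction. *Areg* (−0.71 ± 0.24, adjusted *P* = 0.067) and *Izumo1r* (−0.63 ± 0.29, 0.17) had the same sign and were not called. *Areg* was called in 5 of 20 alternatives, with differences of −1.09 to −0.72 and adjusted *P* values of 0.00308 (whole-tumor libraries alone) to 0.0402 (replicate block). Among these values were 0.00701 without the Isotype Control pool and, in edgeR, 0.0272 with cells holding UMIs of other lineages left out. *Il2ra* (0.24 ± 0.11, adjusted *P* = 0.18), *Foxp3* (0.58 ± 0.51, 0.48), *Penk* (−0.04 ± 0.24, 0.93), and *Itgb8* (−0.42 ± 0.49, 0.61) were not called either. Median depth of CD8 T cells was 3421–3596 UMIs per cell in pools with PancVAX and 4299–5099 UMIs without, and its part in these differences was not tested.

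Whether PancVAX acted differently on the program in Foxp3-positive and Foxp3-negative CD4 T cells was tested with an interaction term over the pools. No member was called for any agent, and 0.0578% of 5194 genes were for PancVAX, 0.0193% for anti–PD-1, and 0% for anti–CTLA-4 (363, 238, and 203 genes had an unadjusted *P* under 0.05, and DESeq2 called 0 for each). *Ikzf2* (1.03 ± 0.21, adjusted *P* = 0.0565), *Ccr8* (0.81 ± 0.18, 0.066), and *Izumo1r* (0.88 ± 0.22, 0.17) had positive terms, where a positive term is a less negative PancVAX difference in Foxp3-positive cells. *Ikzf2* was past the threshold with cells holding UMIs of other lineages left out (adjusted *P* = 0.0145), without the filter on low counts (0.00032), and without the Anti-CTLA-4 whole-tumor library (0.0405). The last alternative was chosen after seeing the data. The part of cells with unsampled *Foxp3* in these terms was not tested.

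Counted per cell, at least 4 program genes were found in 20.3%, 7.53%, 12.2%, and 22.6% of Foxp3-negative CD4 T cells in the pools without PancVAX, and in 7.14%, 6.88%, 9.74%, and 8.21% with it. The groups overlapped, since the Anti-PD-1 pool lay at the level of the pools with PancVAX. In Foxp3-positive cells the shares were 59.1%–67.3% without and 58.3%–71.1% with PancVAX.

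Of the other regulatory T cell genes none was called in Foxp3-positive cells for any agent (24 tested). In Foxp3-negative CD4 T cells 1 of 23, *Lag3*, was lower with PancVAX (−1.04 ± 0.19, edgeR, adjusted *P* = 0.022), where 0.235% of all genes were called lower. In CD8 T cells 3 of 23 were higher (6.28% of all genes), *Klrg1* (2.11 ± 0.33), *Rora* (1.78 ± 0.12), and *Icos* (0.99 ± 0.11), and 5 were lower (3.81% of all genes), among them *Lag3* (−1.02 ± 0.13), *Tnfrsf9* (−0.94 ± 0.11), and *Ikzf4* (−0.60 ± 0.13). The 2 genes called with PancVAX in Foxp3-positive cells were the lactate transporter gene *Slc16a3* (1.35 ± 0.23, edgeR, adjusted *P* = 0.021) and the T cell receptor segment *Trbv13-3* (−2.12 ± 0.38, 0.026), and DESeq2 called neither. *Trbv13-3* had 90 UMIs in all. They came from 6, 3, 1, and 7 Foxp3-positive cells in the pools without PancVAX and 2, 2, 1, and 4 with it.

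Anti–PD-1 and anti–CTLA-4 gave no call among the program genes in any gate as tested. Without the filter on low counts *Penk* (−0.78, edgeR, adjusted *P* = 2.5e-06) and *Areg* (−0.74, 0.00272) were called with anti–PD-1 and *Areg* with anti–CTLA-4 (0.65, 0.0237), all in Foxp3-negative CD4 T cells. Pools with and without the antibody overlapped in each case. *Penk* had 191–1571 CPM without and 377–564 CPM with anti–PD-1. In its highest pools single cells held 258 of 444 UMIs (Anti-CTLA-4) and 235 of 509 UMIs (PancVAX). Anti–PD-1 called 0.0181% of genes in Foxp3-negative CD4 T cells and 0% in CD8 T cells, and anti–CTLA-4 0.0362% and 0%, which fell to 0 genes for both antibodies with the replicate block. *Itgb8* in CD8 T cells had 2.70, 1.70, 2.48, and 0.859 CPM in the pools without anti–CTLA-4 and 0.383, 0.173, 0.180, and 0.412 CPM with it, which did not overlap, but 45 UMIs in all gave a difference of −2.50 ± 0.53 that was not called (adjusted *P* = 0.998). In Foxp3-negative CD4 T cells *Areg* differed by −0.79 ± 0.27 with anti–PD-1 (adjusted *P* = 0.93; −1.18 and 0.00754 without the PancVAX pool) and 0.62 ± 0.27 with anti–CTLA-4 (adjusted *P* = 1). *Il10* was too sparse to be tested in CD8 T cells.

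**Figure D5:**
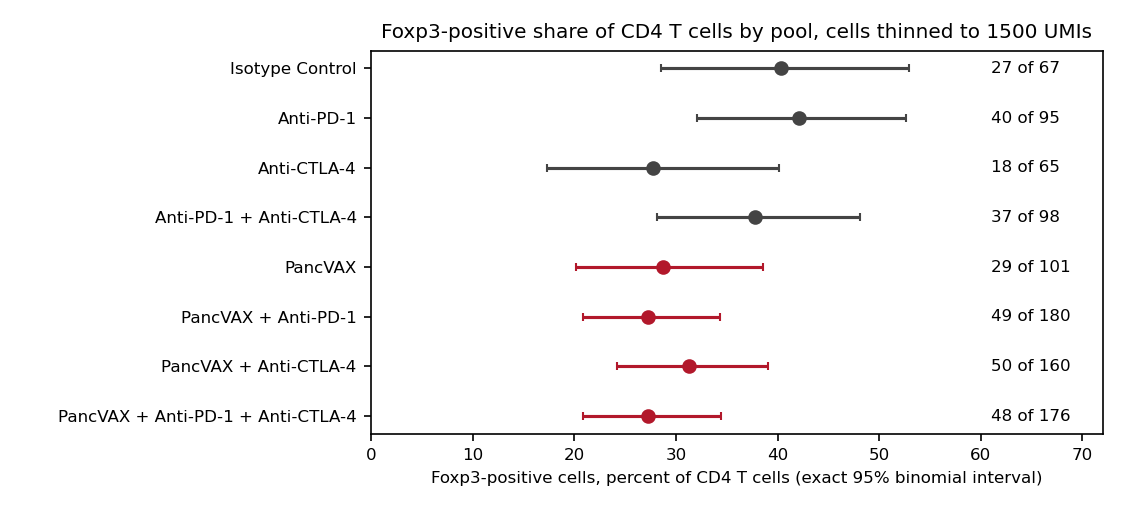
Foxp3-positive cells as a percent of CD4 T cells in each pool, at 1500 UMIs per cell (points; bars, exact 95% binomial interval; red, pools with PancVAX). The pools with PancVAX lie at 27.2%–31.2% and those without at 27.7%–42.1%. CD4 T cells here are the cells of both CD4 gates, and a *Cd4* UMI was required of the Foxp3-negative gate only.

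The share of T cells in the Foxp3-positive gate was compared over the same pools, with every cell thinned to 1500 UMIs because detection of a *Foxp3* UMI depends on depth. Unlike the tests of genes, the permutation test of shares did not take the other agents into account. CD4 T cells here are the cells of both CD4 gates. A *Cd4* UMI was required of the Foxp3-negative gate only, and 50.4% of Foxp3-positive cells had one as deposited. Foxp3-negative cells with unsampled *Cd4* are thus missing, which raises the shares, and no share with *Cd4* required of both gates was taken. Foxp3-positive cells were 40.3%, 42.1%, 27.7%, and 37.8% of CD4 T cells in the pools without PancVAX and 28.7%, 27.2%, 31.2%, and 27.3% with it. The Anti-CTLA-4 pool lay among those with the vaccine. Means were 37.0% ± 6.43 and 28.6% ± 1.89 (SD, n = 4 each), a difference of −8.35 percentage points that did not pass the test (two-sided exact permutation *P* = 0.0857, adjusted over 6 tests 0.514). Without thinning it was −11.3 points (exact permutation *P* = 0.0571, adjusted 0.343), and the smallest *P* these 70 splits allow is 0.0286, which in 1 test alone would not pass 0.05 after adjustment over 6. As a share of all T cells the difference was −0.392 points (exact permutation *P* = 0.486, adjusted 0.72). With anti–PD-1 the share of CD4 T cells differed by 1.60 points (exact permutation *P* = 0.857, adjusted 0.857) and with anti–CTLA-4 by −3.59 points (exact permutation *P* = 0.429, adjusted 0.72). The direction for anti–CTLA-4 turned without thinning (0.316 points), and that for anti–PD-1 turned in Percoll libraries alone (−2.66 points).

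The last comparison was between preparations, within each treatment. *Ikzf2* was the only program gene called, and it was lower in Percoll libraries. In Foxp3-positive cells it had 622, 843, and 1161 CPM (lowest, median, and highest of 8) in Percoll and 927, 1208, and 1405 CPM in whole-tumor libraries. The ranges overlapped, and Percoll was higher in 2 of 8 treatments. The difference was −0.51 ± 0.13 (adjusted *P* = 0.042), where 1.52% of 2565 genes were called. In Foxp3-negative CD4 T cells it was −0.66 ± 0.18 (adjusted *P* = 0.046; 2.45% of 4004 genes called), and in CD8 T cells −0.30 ± 0.06 (adjusted *P* = 0.0053; 4.52% of 10509), under the threshold on size. The calls were lost in 4 and 6 of 10 alternatives, and without upper limits on cells the adjusted *P* was 0.74 in both CD4 gates. *Penk* (0.78 ± 0.41, adjusted *P* = 0.43) and *Ccr8* (0.42 ± 0.14, 0.19) had the other sign in Foxp3-positive cells and were not called, but *Penk* was without the filter on low counts (0.83, 1.8e-05). In CD8 T cells *Penk* differed by 0.59 ± 0.20 (adjusted *P* = 0.0591) and was called without that filter (0.61, 0.00011) and with cells holding UMIs of other lineages left out (0.83, 0.00105). Preparation and sequencing batch cannot be told apart.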

How the data were processed

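Single-cell RNA-seq (10x 5′ chemistry) was measured in 16 libraries, and T cell receptor sequences in 8 Percoll libraries. Per the labels the authors deposited UMI counts per gene and barcode, made with Cell Ranger 4.0.0 on mm10 and handled further in Seurat. Those counts are neither corrected for free RNA nor for doublets here. The limits of the study kept barcodes with 200–3000 genes, 1000–10000 UMIs, and under 10% mitochondrial UMIs, without hemoglobin UMIs. Since 1 UMI decides a gate, shallow cells can be missed, and shares were therefore taken at 1500 UMIs per cell.

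UMIs were summed per gate and library, sums of fewer than 10 cells were left out, and sums were tested with edgeR 4.0.16 in R 4.3.3 (quasi-likelihood, TMM, filterByExpr, Benjamini-Hochberg adjustment). The study tested cells, which are not replicates. Gates were compared with the library as a block, preparations with the treatment as a block, and agents additively over 8 pools. The interaction had the pool as a block. Alternatives were DESeq2 1.42.0, other normalization, filters, gates, depths, and left-out pools. The test was checked on simulated counts. Compartments without *Cd3* UMIs were assigned by the most distinct markers detected, at least 2, by a rule chosen after the data were seen. Replicate numbers 1 and 2 assigned to the RNA libraries mark the preparation, a shared sequencing batch, so that they pair libraries within treatments.

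The 9 genes, gene lists, and tests were chosen with earlier results of these data known. Besides the lists, genes are named where they had the 5 largest rises or falls between CD4 gates (at least 50 UMIs, same direction in at least 14 of 16 libraries), the 3 largest in either direction with an agent in Foxp3-positive cells, or the 5 levels most like *Foxp3*. Genes with an interaction term were named after their values were seen. The result of 1 gene of a list is not reported here.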

Additional observations from a re-analysis of the deposited data

Results flagged for a closer look

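Of 84 groups of pools or libraries examined, 6 held a value far from the others by Dixon's ratio, which chance does in about 1 of 20 groups. The groups shared pools and libraries. All 6 values were levels of the program genes in Foxp3-positive cells. *Il2ra* had 620 CPM in Isotype Control and 383–399 CPM in the other pools without PancVAX. *Areg* had 1897 CPM in Isotype Control and 836–928 CPM in the other pools without anti–CTLA-4, and among Percoll libraries Isotype Control again lay highest, at 2581 CPM against 549–1088 CPM. *Itgb8* had 109 CPM in PancVAX + Anti-PD-1 and 74.6–77.3 CPM in the other pools with PancVAX, and 74.6 CPM in PancVAX + Anti-PD-1 + Anti-CTLA-4 against 108–109 CPM in the other pools with anti–PD-1. *Ccr8* had 209 CPM in the Anti-CTLA-4 whole-tumor library, which held 11 Foxp3-positive cells, and 481–700 CPM in the other whole-tumor libraries.

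In 4 genes outside the program the effect of an agent differed between Foxp3-positive and Foxp3-negative CD4 T cells by the interaction term. For PancVAX these were the interferon-induced *Ifitm2* (−2.50 ± 0.37, edgeR, adjusted *P* = 0.010), *Itgav* (1.30 ± 0.22, 0.028), and *Trbv13-3* (−2.73 ± 0.48, 0.030). The term of *Trbv13-3* rests on the few Foxp3-positive cells counted above. *Itgav* encodes the partner chain of *Itgb8*. It had 302, 164, 202, and 328 CPM without and 67.8, 122, 102, and 195 CPM with PancVAX in Foxp3-negative CD4 T cells, and 810, 506, 335, and 570 CPM against 618, 756, 633, and 572 CPM in Foxp3-positive cells. *Ifitm2* had 276–895 CPM without and 1676–2167 CPM with PancVAX in Foxp3-negative CD4 T cells, and 63.8–531 CPM against 110–138 CPM in Foxp3-positive cells. The value of 531 CPM was that of Isotype Control, where 1 cell held 60 of 84 UMIs. For anti–PD-1 the gene was *S100a9* (5.77 ± 0.95, adjusted *P* = 0.0499), a neutrophil gene, where 1 cell held 377 of the 385 UMIs of the PancVAX + Anti-PD-1 pool. DESeq2 called none of these 4 terms.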

How the results depend on the processing

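The 8 genes other than *Foxp3* kept their direction wherever they were called. Over all alternatives other than left-out pools, 1402 values of single genes stayed on the same side of the threshold, 17 passed it, 18 lost it, and 0 changed sign while called. With pools left out singly the numbers were 544, 2, and 12. Counts of genes called depended more on the processing, and the cause was not tested.

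Against CD8 T cells the 1517 genes became 3065 without the filter on low counts, 981 without the library block, and 943 when thinned, and against Foxp3-negative CD4 T cells 893 became 566 without the block and 548 when thinned. With PancVAX the 1136 genes in CD8 T cells became 372 without upper limits. In Foxp3-negative CD4 T cells 53 became 102 with the replicate block, 81 without cells of other lineages, 35 without the Anti-CTLA-4 whole-tumor library (chosen after seeing the data), 26 at 1 *Cd3* UMI, 206 without the filter, and 1 without upper limits. In Foxp3-positive cells 2 became 0 with *Cd4* required, with DESeq2, in Percoll libraries, and without upper limits, 4 without cells of other lineages, and 29 without the filter. With anti–CTLA-4 the 0 genes in CD8 T cells became 2 without the filter. In Foxp3-negative CD4 T cells 2 became 0 with the replicate block and without upper limits, 1 with DESeq2, at 1 *Cd3* UMI, and without shared barcodes (chosen after seeing the data), 4 without cells of other lineages, and 49 without the filter. In Foxp3-positive cells 0 became 2 with *Cd4* required, 1 in Percoll libraries and without cells of other lineages, and 13 without the filter. With anti–PD-1 the 0 genes in CD8 T cells became 5 with DESeq2 and 9 without the filter. In Foxp3-negative CD4 T cells 1 became 0 with the replicate block, without the Anti-CTLA-4 whole-tumor library, at 1 *Cd3* UMI, and without shared barcodes, 2 with DESeq2 and in whole-tumor libraries, 9 in Percoll libraries, and 44 without the filter. In Foxp3-positive cells 0 became 2 with *Cd4* required and without cells of other lineages, 1 in whole-tumor libraries, and 10 without the filter. The replicate block moved no other count by over 1.5 times, and among the genes it could be run for it changed the call of *Areg* alone, with PancVAX in CD8 T cells (−0.75, adjusted *P* = 0.0402). *Il10* and *Itgb8* could be tested with the block in Foxp3-positive cells alone.

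Between preparations 475 genes in CD8 T cells became 283 with DESeq2 and 285 without the treatment block, 98 in Foxp3-negative CD4 T cells became 59 with DESeq2, 167 without the filter, 51 without the block, and 3 without upper limits, and 39 in Foxp3-positive cells became 1 with *Cd4* required. For the interaction with PancVAX 3 genes became 5 without the Anti-CTLA-4 whole-tumor library, 1 with *Cd4* required, 0 with DESeq2 and without upper limits, 14 without cells of other lineages, and 33 without the filter. With anti–CTLA-4 0 became 1, 4, 4, and 11 without that library, with *Cd4* required, without other lineages, and without the filter. With anti–PD-1 1 became 0 with *Cd4* required, DESeq2, RLE, no shared barcodes, or no upper limits, 2 without other lineages, and 9 without the filter.

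Leaving out 1 pool at a time gave, with PancVAX, 762–1256 genes in CD8, 19–46 in Foxp3-negative CD4, and 0–8 in Foxp3-positive cells, lowest without Anti-PD-1 for the second and without PancVAX + Anti-CTLA-4 for the third. With anti–CTLA-4 the counts were 0–2, 0–5, and 0–4, and with anti–PD-1 0–1, 0–2, and 0–3. Foxp3-positive shares of CD4 T cells differed by −11.4 to −6.63 points with PancVAX, −6.05 to −1.09 with anti–CTLA-4, and −1.24 (without Anti-PD-1) to 4.37 with anti–PD-1, and shares of T cells by −0.827 to −0.0997, −0.597 to −0.0432, and −0.00939 to 0.545. The difference of the share of CD4 T cells with anti–CTLA-4 turned to 3.46 points without shared barcodes and 0.316 without thinning, and that of T cells to 0.0775 without shared barcodes. With anti–PD-1 the share of CD4 T cells turned to −2.66 in Percoll libraries, −3.27 without shared barcodes, and −3.57 at 1000 UMIs, and that of T cells to −0.0791 and −0.0422 in the first of these alternatives. Gates of 11–47 Foxp3-positive cells per library limit what sparse genes such as *Il10* and *Itgb8* can show.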
